A study of Arabidopsis thaliana with 7 samples.

Results

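The LATERAL ORGAN BOUNDARIES domain (LBD) genes described here are 10 members of a plant transcription factor family, measured in isolated 8-cell embryos of Arabidopsis thaliana. They were taken by name, as LOB, AS2, LBD3, LBD4, LBD16, LBD18, LBD25, LBD29, LBD30 and LBD33, and all 10 were found among the 27826 genes of the table, each with 1 probe set named after its locus. The family as listed in a RefSeq gene table has 42 loci on the array, so 32 further LBD genes served as context. Embryos of wild-type Columbia (Col-0) plants, with 4 arrays (the design text names 3), were set against embryos of the Bodenlos (IAA12) mutant, bdl, in that same ecotype, with 3 arrays. No treatment was given to either genotype. Each array carried total RNA pooled from about 40 to 50 embryos that had been drawn from ovules with a microcapillary. The labels give neither the bdl allele and its zygosity nor whether replicates came from separate harvests, so p-values measure the spread between these samples. The growth protocol mentions antibiotic selection of transgenic seed, without saying that these embryos carried a transgene.

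LBD proteins occur in plants only and bind DNA through a conserved cysteine-rich domain, with a leucine-zipper-like stretch through which they pair with each other and with other factors. Many LBD genes mark the border between a stem cell region and a new organ, and several are switched on by auxin through AUXIN RESPONSE FACTOR (ARF) proteins. BODENLOS is an Aux/IAA repressor that binds the ARF protein MONOPTEROS (ARF5), and bdl mutants, in which the repressor escapes auxin-triggered breakdown, fail to form an embryonic root. The comparison therefore asks which LBD transcripts differ when this auxin response is altered in the early embryo.

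The array medians lay between 8.44 and 9.37 intensity units, and across genes, arrays of 1 genotype correlated at 0.934 to 0.960 and arrays of different genotypes at 0.921 to 0.945. The number of arrays limits the precision. IAA12 itself had intensities of 135 to 167 in wild type against 432 to 477 in bdl, which does not by itself check the genotype, since the lesion need not alter the transcript. All 7 embryo markers (among them WOX2, WOX8 and LEC1) had a mean above the 25th percentile of all genes, and their summed intensity, to which WOX2 and WOX9 gave the largest parts, was 3329 to 4178 in wild type against 3388 to 3683 in bdl. Of these 7, DRN, a gene of the embryo apex, fell (log2 difference -1.99; limma, adjusted p = 0.00657), and FUS3, a regulator of seed maturation, rose (1.02, adjusted p = 0.0451). The remaining 5 did not pass. Over all genes 1.76% were called. The call of FUS3 was lost in each omission of an array (adjusted p of 0.0681 to 0.167). On the 4 arrays with the lowest pollen marker level neither DRN (-1.66, adjusted p = 0.155) nor FUS3 (0.79, adjusted p = 0.478) was called. That smaller fit called 105 genes in all, against 490 on all 7 arrays. Markers of other tissues of the ovule and flower were present to different extents. The summed intensity of 11 seed coat markers was 121 to 216 in wild type against 61.1 to 115 in bdl, so that the genotypes did not overlap. No single gene of this list was called, and 2 of the 11 had means below the 25th percentile. BAN, MUM4 and STK, the brightest of the list by mean, weighed most in this sum. By gene, 7 had a negative and 4 a positive log2 difference. Among the latter, TT1 was at 2.75 to 3.01 in wild type against 4.15 to 6.70 in bdl. That of 8 endosperm markers was 199 to 342 and 108 to 210, of which SUC5 made up most, and the other 7 endosperm genes had means below the 25th percentile. That of 7 pollen markers was 272 to 797 and 388 to 580. VEX1 made up most of this sum on every array except wild type replicate 4, where VEX1 was lowest (191). The mean log2 intensity of these 7 genes was 5.66 on wild type replicate 4, 4.83 on bdl replicate 2 and 4.73 on wild type replicate 2, against 2.90 to 3.27 on the other 4 arrays. VEX1 did not follow that order, and PPME1 was highest within wild type on replicate 1 (5.69). The part of these tissues in the results below was not tested. Values on 4 arrays, where given, leave out the arrays with the highest pollen level only. On those 4 arrays the seed coat sums were 136 and 136 in wild type against 115 and 61.1 in bdl. The endosperm sums were 342 and 341 against 210 and 195, so that setting does not address these 2 tissues. With RNA of whole embryos, fewer cells that express a gene and less RNA per cell cannot be told apart.

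Of the 10 LBD members, LBD3 fell in bdl, no member rose, and 9 did not pass the test (limma, adjusted p under 0.05 over all genes). Over all 27826 genes 1.76% were called, 0.859% lower and 0.902% higher, so 1 of 10 is a single gene above a low background. Before adjustment, 4 of 10 had a p under 0.05 (LBD3, LBD4 and LBD16 lower, AS2 higher), as had 10.7% of all genes. Every wild-type array lay on one side of every bdl array for 2 members, LBD3 and LBD16, and for 11.2% of all genes. The median log2 difference (bdl minus wild type) of the members was 0.03, beside -0.01 over all genes. Most members were dim. For 5 of the 10 (LOB, LBD16, LBD25, LBD29 and LBD33) the mean log2 intensity lay below 1.85, the 25th percentile of all genes, and without detection calls such levels are not known to exceed background.

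**Figure D1:**
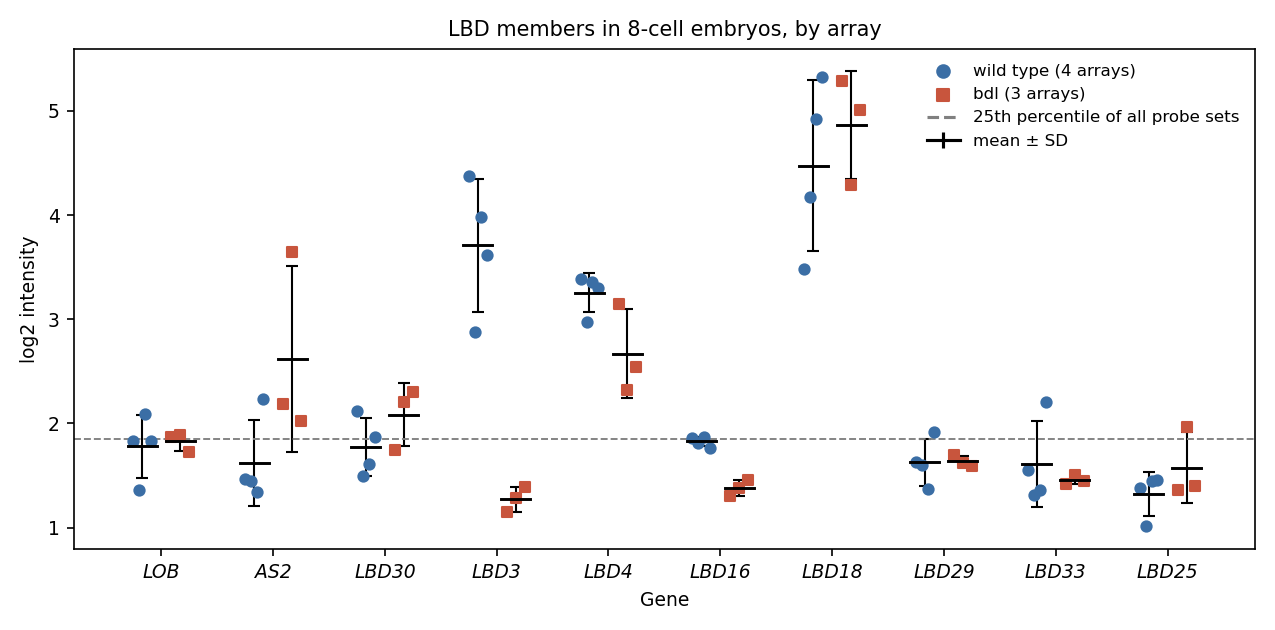
Log2 intensity (vertical axis) of the 10 LBD members (horizontal axis) on each of 4 wild-type arrays (blue circles) and 3 bdl arrays (red squares), with mean ± SD in black and the 25th percentile of all probe sets (1.85) as a dashed line. LBD3 separates widely, from 2.87 to 4.37 in wild type and from 1.15 to 1.39 in bdl. For 5 members the mean over all 7 arrays, which is not drawn, is below the dashed line. The drawn wild-type means of AS2 (1.62) and LBD30 (1.77) and the bdl mean of LBD3 (1.27) also lie below it.

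LBD3 and LBD4 belong to the members active in vascular tissue. LBD3, also named ASL9, is a cytokinin-responsive gene, and both genes act in the growth of the vascular cambium in roots. The intensity of LBD3 (probe set AT1G16530_at) was 20.7, 7.33, 15.8 and 12.3 in wild type replicates 1 to 4. In bdl replicates 1 to 3 it was 2.21, 2.43 and 2.62. Every bdl array thus lay far below every wild-type array, and the bdl values were close together while the wild-type values were widely spread. The geometric mean fell from 13.1 to 2.42, which is 5.42-fold. On the log2 scale the difference was -2.44 ± 0.34 (SE; 95% interval -3.22 to -1.66; 4 against 3 arrays; limma, adjusted p = 0.0115). By size it was number 106 among the 239 genes called lower. The mean log2 intensity in bdl, 1.27, lay below the 5th percentile of the means of all genes (1.47), a range where intensities are compressed, so the fold depends on an unknown background.

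The call of LBD3 was lost without bdl replicate 1 (log2 difference -2.38, adjusted p = 0.0584) or bdl replicate 2 (-2.44, adjusted p = 0.0558), while over all 7 omissions of an array the difference stayed between -2.72 and -2.22. On the 4 arrays with the lowest pollen marker level (wild type replicates 1 and 3, bdl replicates 1 and 3), a setting added after the data were seen, it was -2.91 (adjusted p = 0.0458). The summed seed coat markers moved in the same direction as LBD3, at 121 to 216 in wild type against 61.1 to 115 in bdl. By gene, 7 of the 11 markers had a negative difference and 4, among them TT1, a positive one. Their part in the fall was not tested.

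LBD4 (AT1G31320_at) had intensities of 10.5, 7.88, 10.2 and 9.88 in wild type and 8.86, 5.01 and 5.82 in bdl. The first bdl array lay inside the wild-type range and the other two below it. The log2 difference was -0.59 ± 0.24 (SE; 95% interval -1.14 to -0.03; limma, adjusted p = 0.436), so LBD4 did not pass. That interval leaves room for a fall of over 2-fold. Over the omissions of an array the difference ran from -0.82 to -0.41.

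The 3 genes whose pattern over the 7 arrays came nearest to that of LBD3, by the root mean square difference of log2 intensities centred on each gene's mean, were PRS, BRG2 and ABI3. PRS (WOX3), a WUSCHEL-related homeobox gene of organ margins, differed from LBD3 by 0.21 and had intensities that fell by 2.20 ± 0.30 on the log2 scale (SE; adjusted p = 0.0109). BRG2, a BOI-related gene, was at 0.26 and fell by 2.46, and ABI3, a regulator of seed maturation, was at 0.27 and fell by 2.24. Wild type replicate 2 was the lowest of the wild-type arrays for LBD3, PRS, BRG2 and ABI3. They were picked from all genes for this likeness, so their differences are a description.

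**Figure D2:**
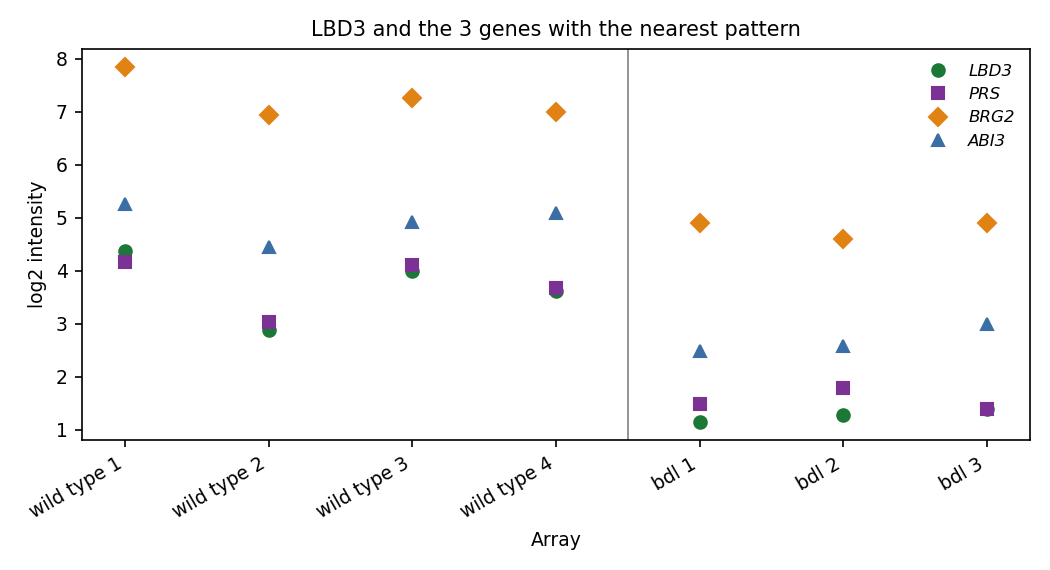
Log2 intensity (vertical axis) of LBD3, PRS, BRG2 and ABI3 on each array (horizontal axis), with wild type left and bdl right of the grey line. In wild type all 4 genes are lowest in replicate 2, and in bdl LBD3 and PRS lie between 1.15 and 1.78.

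LBD16, LBD18, LBD29 and LBD33 act in lateral root formation, where auxin induces LBD16, LBD18 and LBD29 through ARF7 and ARF19. None of these 4 passed (limma), 1 had an unadjusted p under 0.05, and their median log2 difference was -0.07. Of all genes, 1.76% passed and 10.7% had an unadjusted p under 0.05. LBD16 (AT2G42430_at), needed for the asymmetric division of lateral root founder cells, had intensities of 3.64, 3.52, 3.64 and 3.40 in wild type and 2.47, 2.61 and 2.75 in bdl. The groups did not overlap and each was tight, but the bdl arrays and the lowest 2 wild-type arrays were below the 25th percentile (1.85 on the log2 scale). The log2 difference was -0.45 ± 0.16 (SE; 95% interval -0.81 to -0.08; limma, adjusted p = 0.342). That interval lies within a 2-fold change, on a scale that is compressed at such levels.

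LBD18 (AT2G45420_at), which promotes lateral root emergence, had a mean at the 65.7 percentile of all genes. Its intensities were 11.2, 18.1, 30.2 and 40.2 in wild type and 39.1, 19.5 and 32.2 in bdl. The wild-type arrays alone spanned the whole bdl range. The log2 difference was 0.39 ± 0.46 with a 95% interval of -0.67 to 1.44 (adjusted p = 0.849), the widest interval of the 10 members. Leaving out an array moved the difference from 0.05 (without wild type replicate 1) to 0.67 (without wild type replicate 4 or bdl replicate 2), and it was 0.95 on the 4 arrays with the lowest pollen marker level. No direction was resolved for LBD18.

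LBD29 (AT3G58190_at), which regulates the auxin influx carrier gene LAX3, ran from 2.59 to 3.78 in wild type and from 3.02 to 3.24 in bdl. LBD33 (AT5G06080_at), which pairs with LBD18 to activate the cell cycle gene E2FA, was 2.94, 2.49, 2.57 and 4.61 in wild type against 2.68 to 2.84 in bdl. For both genes the bdl arrays fell inside the wild-type range, and the log2 differences were 0.01 ± 0.19 and -0.15 ± 0.25 (SE). The highest LBD33 value came from wild type replicate 4, and without it the difference was 0.05. All of these levels are dim, and a change in transcripts hidden under background would not be seen.

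LOB, AS2 and LBD30 are members known from organ boundaries and leaf patterning. All 3 had positive differences, with a median of 0.31 on the log2 scale, and none passed (limma), with 1 at an unadjusted p under 0.05. The shares over all genes were 1.76% passing and 10.7% at an unadjusted p under 0.05. LOB (AT5G63090_at), the founding gene of the family, is expressed at the base of lateral organs, where it limits brassinosteroid levels. Its intensity was 2.57 to 4.25 in wild type against 3.31 to 3.69 in bdl, and the log2 difference was 0.05 ± 0.21 (SE; 95% interval -0.44 to 0.54), which turned to -0.09 without wild type replicate 2.

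AS2 (AT1G65620_at) works with the MYB protein AS1 to keep meristem genes of the KNOX class off in leaves and to set up the upper leaf side. It had intensities of 2.76, 2.74, 2.53 and 4.70 in wild type and 4.54, 12.5 and 4.07 in bdl. The bdl arrays were higher than the first 3 wild-type arrays, but wild type replicate 4 lay inside the bdl range, and bdl replicate 2 stood far above all others. The log2 difference was 0.996 ± 0.42 (SE; 95% interval 0.03 to 1.97; limma, adjusted p = 0.452). The mean log2 intensity in wild type, 1.62, lay below the 25th percentile of all genes (1.85) and is not known to exceed background. The size of the AS2 difference thus depends on an unknown background. Within each genotype the highest AS2 value was on the array with the highest mean of the pollen markers, 5.66 on wild type replicate 4 and 4.83 on bdl replicate 2. Wild type replicate 2 had a pollen mean of 4.73 and an AS2 intensity of 2.74. These are single arrays, and a link between AS2 and the pollen markers was not tested. On the 4 arrays with the lowest pollen marker level the difference was 0.70 (adjusted p = 0.514), without bdl replicate 2 it was 0.48 and without wild type replicate 4 it was 1.20.

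LBD30 (AT4G00220_at), known as JAGGED LATERAL ORGANS, acts in boundaries and in the embryo and root, where it is required for normal PLETHORA expression. Its intensity was 2.82 to 4.34 in wild type against 3.35 to 4.94 in bdl, with a log2 difference of 0.31 ± 0.23 (SE; adjusted p = 0.726). That difference was 0.20 without bdl replicate 3, 0.48 without bdl replicate 1 and 0.16 on the 4 arrays with the lowest pollen marker level. LBD25 (AT3G27650_at), a gene described for its response to auxin and darkness, ran from 2.02 to 2.75 in wild type and from 2.57 to 3.92 in bdl. Its log2 difference was 0.25 ± 0.23 (SE; adjusted p = 0.788), and its highest value also came from bdl replicate 2, without which the difference was 0.05. For LOB, LBD16, LBD25, LBD29, LBD30 and LBD33, 6 of the 10 members, the 95% interval lay within a 2-fold change either way, as it did for 59% of all genes.

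Among the 32 other LBD genes 3 rose, none fell and 29 did not pass (limma), with a median log2 difference of -0.04. That is a share of 9.38% called, beside 1.76% of all genes. At an unadjusted p under 0.05 there were 9 of 32, beside 10.7% of all genes. LBD13 had intensities of 2.48 to 3.53 in wild type against 34.7 to 46.4 in bdl, so a gene in the dim range in wild type was well within the measured range in bdl. Its log2 difference was 3.84 ± 0.20 (SE; adjusted p = 0.000109). The mean log2 intensity of LBD13 in wild type, 1.51, lay near the 5th percentile of all genes (1.47) and is not known to exceed background, so the size of its difference, like that of LBD3, depends on an unknown background. LBD42 was at 7.36 to 17.9 in wild type against 107 to 180 in bdl, a difference of 3.45 ± 0.33 (adjusted p = 0.00191). LBD36, also named ASL1 and known from petal patterning, was at 4.31 to 8.88 in wild type against 20.9 to 77.9 in bdl, a difference of 3.004 ± 0.47 (adjusted p = 0.0197). The calls of LBD13 and LBD42 held in all 7 omissions of an array, and that of LBD36 held in 2 of 7, being lost without wild type replicate 1, 2 or 3 or bdl replicate 1 or 2 (adjusted p of 0.0556 to 0.0878). On the 4 arrays with the lowest pollen marker level LBD13 and LBD42 were called (3.68 and 2.96) and LBD36 was not (2.97, adjusted p = 0.274).

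**Figure D3:**
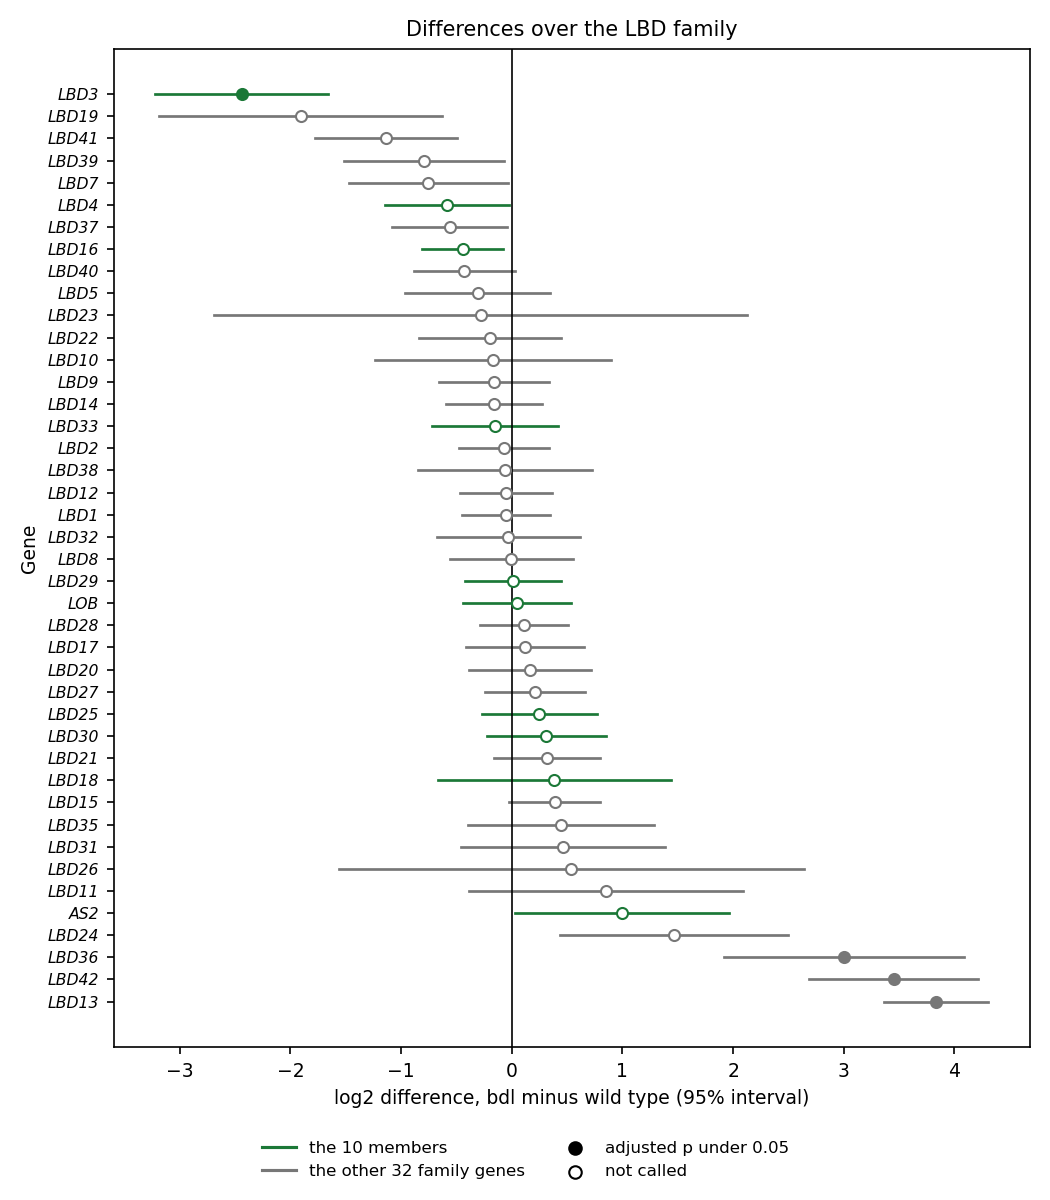
Log2 difference, bdl minus wild type, with its 95% interval (horizontal axis) for all 42 LBD genes (vertical axis), members in green and the other 32 in grey, with filled points for genes called at an adjusted p under 0.05. LBD3 is the filled point at the lower end (-2.44), and LBD36, LBD42 and LBD13 are those at the upper end (3.004 to 3.84).

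Each of 3 members has another LBD gene as its next protein-coding neighbour in the locus order of the RefSeq table. LBD18 lies beside LBD19, which had intensities of 6.59 to 40.8 in wild type against 2.89 to 5.19 in bdl and a difference on the log2 scale of -1.91 ± 0.55 (SE; adjusted p = 0.201), while LBD18 was at 0.39. LBD16 lies beside LBD17 (-0.45 and 0.12). LBD30 lies beside LBD31, which was at 142 to 370 in wild type against 184 to 447 in bdl with a difference of 0.46 ± 0.40, beside 0.31 for LBD30. None of these 6 genes passed, and the difference within a pair was not tested. LBD19, LBD31 and LBD17 are named for their place and were chosen after their values were seen.

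The class II genes LBD37 to LBD42, a branch of the family that includes repressors of anthocyanin and nitrogen-responsive genes, were grouped after their values were seen and get no test as a group. Of these 6, LBD42 rose, beside 1.76% of all genes called. The other 5 did not pass, with differences of -0.06 (LBD38), -0.43 (LBD40), -0.56 (LBD37), -0.79 (LBD39) and -1.13 (LBD41). LBD41, a gene induced by low oxygen, was at 29.9 to 55.6 in wild type against 17.3 to 26.6 in bdl (limma, adjusted p = 0.120). It was called when wild type replicate 4 was left out (-1.34, adjusted p = 0.0428). In every other omission of an array it was not called (-1.31 to -0.996, adjusted p of 0.154 to 0.341). None of the 6 had a mean below the 25th percentile, whereas 16 of the 36 class I genes did.

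Genes that work with the members were followed through lists written with earlier results of these data known. Of 10 partners and targets of AS2, 2 rose, 1 fell and 7 did not pass, with a median log2 difference of -0.09. The share called over all genes was 1.76%, and 11.2% of all genes had genotypes that did not overlap. KAN1, a gene of abaxial identity whose protein represses AS2, had intensities of 6.89 to 9.38 in wild type against 69.5 to 128 in bdl, a difference of 3.38 ± 0.26 (SE; adjusted p = 0.000792). KAN2, its relative and a target of the AS1 and AS2 proteins, was at 6.67 to 13.3 and 19.8 to 55.8, a difference of 2.09 ± 0.40 (adjusted p = 0.0479). ARF3, which AS1 and AS2 repress in leaves, fell by 1.46 ± 0.27 (adjusted p = 0.0438). The calls of KAN2 and ARF3 are marginal: KAN2 kept its call in 1 of 7 omissions of an array (without bdl replicate 1) and ARF3 in none (adjusted p of 0.0737 to 0.118). AS1, the partner of AS2, was at 22.0 to 30.3 in wild type against 38.7 to 66.2 in bdl without overlap, yet did not pass (0.96 ± 0.23, adjusted p = 0.116). The KNOX genes KNAT1, KNAT2 and KNAT6 had differences of -0.29, 0.06 and 0.38 and did not pass. KNAT2 had a mean below the 25th percentile of all genes. KNAT1 was also dim, at 3.41 to 6.11 in wild type against 3.15 to 4.51 in bdl. For these dim KNOX genes a change hidden under background would not be seen.

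In the auxin module upstream of the lateral root members, 1 of 7 genes rose and 6 did not pass, beside 1.76% of all genes called. The median log2 difference was -0.20. The gene that rose was IAA12 itself, by 1.59 ± 0.17 (SE; adjusted p = 0.00287). ARF7 (-0.38) and ARF19 (-0.02), the activators of LBD16, LBD18 and LBD29 in roots, did not pass, nor did MONOPTEROS (ARF5), which was at 492 to 545 in wild type against 408 to 479 in bdl. None of 5 targets of the lateral root members passed (limma), and none had an unadjusted p under 0.05, beside 10.7% of all genes. Their median was -0.09. The expansin gene EXPA14 had the smallest p, at -0.31 ± 0.17 with intensities of 493 to 579 in wild type against 410 to 455 in bdl. It was followed by PUCHI, an AP2-type gene of lateral root primordia, at -0.24 ± 0.24. PUCHI had a mean below the 25th percentile of all genes, a level not known to exceed background.

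Of 9 genes linked to LOB, LBD3, LBD4 or LBD30, 1 fell, none rose and 8 did not pass. Over all genes 1.76% were called, and the genotypes did not overlap for 11.2%. The median log2 difference was -0.18. The gene that fell was PLT1, a root stem cell factor whose expression depends on LBD30. It was at 102 to 123 in wild type against 25.8 to 37.1 in bdl, a difference on the log2 scale of -1.86 ± 0.19 (SE; limma, adjusted p = 0.00244), while LBD30 itself stood at 0.31 ± 0.23. On the 4 arrays with the lowest pollen marker level, with fewer arrays, PLT1 was not called (-1.81, adjusted p = 0.154), nor were KAN1 (3.48, adjusted p = 0.0578) and IAA12 (1.54, adjusted p = 0.164). TMO6, a MONOPTEROS target that acts with LBD4 in vascular tissue, was at 9.32 to 28.2 and 3.93 to 5.72 without overlap and did not pass (-1.52 ± 0.39, adjusted p = 0.144). BAS1, the brassinosteroid-inactivating enzyme gene that LOB activates, was at 0.01 ± 0.26.

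**Figure D4:**
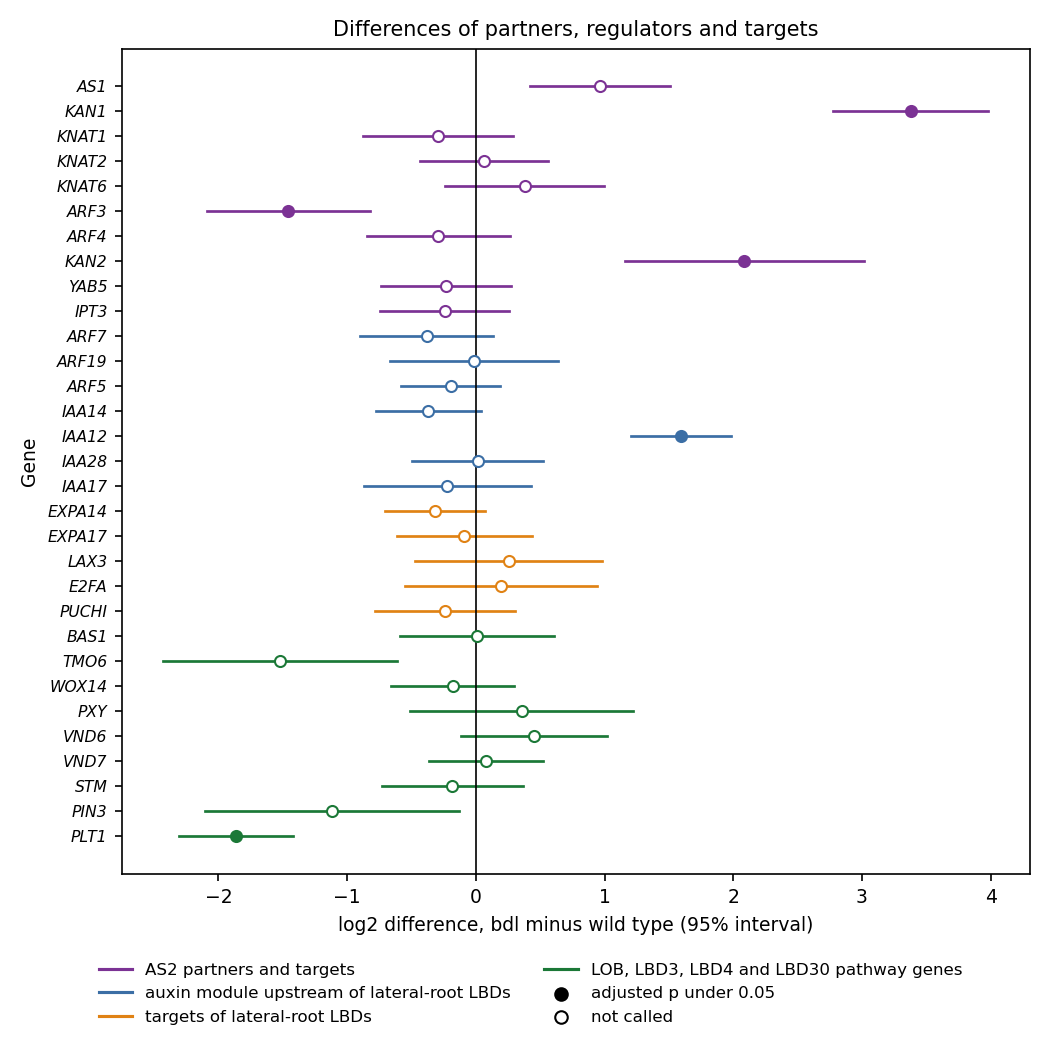
Log2 difference, bdl minus wild type, with its 95% interval (horizontal axis) for 31 partners, regulators and targets of the members (vertical axis), coloured by list, with filled points for genes called at an adjusted p under 0.05. KAN1 (3.38), KAN2 and IAA12 are filled on the right of 0, and PLT1 (-1.86) and ARF3 on the left.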

How the data were processed

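The table that the authors deposited holds intensity values, 1 probe set per locus. Per the submitters' processing notes it was made with RMA, for which no version appears. No chip definition or genome build is stated in the labels. Values ran from 1.24 to 3216, apparently on a linear scale, which is unstated, so log2 was taken with no pseudocount and no further scaling. Detection calls were not used here. The test of bdl against wild type used limma 3.58.1 under R 4.3.3 (lmFit, then eBayes; 2-sided; only genotype in the model), with Benjamini-Hochberg adjustment over all 27826 genes and a call at an adjusted p under 0.05. The procedure was tested on simulated data.

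Names came from a RefSeq table of assembly TAIR10.1, which held all 106 listed loci and, for 102, the name used. All 10 members are named. From each pathway list come up to 4 called genes or, in a list with no call, the 2 of smallest p, and other list genes appear for their role. Called genes are named from the rest of the family and the embryo markers, as are the 3 genes of nearest pattern to LBD3. The members, lists and rules were chosen with earlier results of these data known. Planned checks of promoter motifs and protein features were not run, as no sequences were used here. Among genes linked to the members, 1 is not reported here and was left out of its list. Alternatives were scalings, filters on dim genes, variance models, array weights, a replicate block, an offset of 1, thresholds and leaving out each array. The 4-array setting and counting identical probe sets once were added after the data were seen.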

Additional observations from a re-analysis of the deposited data

Results flagged for a closer look

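In 24 checks of the 4 wild-type arrays (members, named called genes and marker sums), 3 found a single array far from the rest, and about 1 in 20 such checks does so by chance. On the log2 scale AS2 was at 2.23 on wild type replicate 4, with 1.34 to 1.46 on the remaining arrays. LBD25 was at 1.02 on wild type replicate 2 and between 1.38 and 1.46 on the remaining ones. The log2 of the summed endosperm markers was 7.63 on wild type replicate 4 and between 8.31 and 8.42 otherwise. Groups of 3 arrays, such as bdl, were not checked.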

How the results depend on the processing

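The number of LBD members called was 1 (LBD3) in the reported setting and 0 with the dimmer genes up to the 50th percentile left out, a filter that tested 1 member and dropped LBD3. It was 0 at an adjusted p under 0.01 and 0 to 1 when each array was left out. LBD3 had a log2 difference of -2.91 to -2.05 over 18 alternatives, and its sign never changed. The number of other LBD genes called was 3, and 2 to 4 over the omissions of an array. Near 0, LOB turned to -0.161 and LBD25 to -0.0376 on the 4 arrays with the lowest pollen marker level, LBD29 to -0.00969 with array medians centred, and LBD33 to 0.0481 with the replicate block. Over the omissions of an array LOB ran from -0.0902 to 0.151, LBD29 from -0.0757 to 0.106 and LBD33 from -0.249 to 0.0481. None of these 4 was called in any setting, and the cause was not tested. The filter on dim genes at the 25th percentile left out 5 members, so it gives no value for them.

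With the replicate number as a block, the number of members called was 0 and LBD3 was at -2.47 (adjusted p = 0.0839), while 188 genes were called in all against 490 without it. Wild type replicate 4 has no bdl array of the same number, so under the block it adds nothing to the genotype difference. The block also leaves fewer degrees of freedom. Same-numbered arrays did not deviate together (correlations of 0.04, 0.04 and 0.05 across genes), so the numbers are not taken to pair the samples. On the same block IAA12 and PLT1 had adjusted p-values of 0.0689 and 0.0660. ARF3 and KAN2 had 0.125 and 0.159, and the embryo markers DRN and FUS3 had 0.0701 and 0.272. FUS3 was also not called with array medians centred (0.0535) or the 25th percentile filter (0.0545). KAN2 was also not called with array medians centred (adjusted p = 0.0506), quantile normalization (0.0623), cyclic loess (0.0620) and 1 added before log2 (0.0552), nor with robust eBayes (0.0515). The absence of detection calls limits what can be said of the dim members.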
